A study of Homo sapiens with 18 samples.

Results

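Antisense-named long noncoding RNAs (lncRNAs) were followed in HL-60 and MOLM-13, human acute myeloid leukaemia cell lines. A gene counted as a member when the files gave it the biotype lncRNA and a symbol ending in -AS and a number, listed it for both lines, and gave it a mean log2 value of at least 6 over the 9 samples of each line. That rule held for 118 of the 272 antisense-named lncRNAs listed for both lines, out of 15517 genes listed for both; 1 further gene was left out by name. The members were thus chosen by their mean level over the treated and untreated samples, and levels are given as a description only. ZSWIM8-AS1 (6.003 in HL-60, 6.348 in MOLM-13) and RORA-AS1 (6.687 and 6.005) lay just inside the threshold, and ZNF710-AS1 (6.568 and 5.965) and FOXD2-AS1 (5.960 and 7.207) just outside.

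RNA was taken after 48 h (day 2) from 6 groups of 3 replicates, 18 samples in all: each line with the solvent dimethyl sulfoxide (DMSO), with decitabine (DAC), a cytidine analogue that traps DNA methyltransferases, or with NTX-301, a nucleoside analogue of the same class. HL-60 received 30 nM and MOLM-13 received 15 nM by the labels, whose wording does not settle if this holds for both drugs or for DAC alone. Dose and line cannot be told apart. Within a line, both drugs were compared with the same DMSO samples. The labels call the replicates triplicates and do not say that they came from separate cultures, so p-values measure the spread between these samples, which may be technical. Read depth is unknown, because the files hold normalized log2 values without counts. The granule and myeloid genes MPO, AZU1, PRTN3, ELANE, CD33, SPI1, CEBPA and LYZ were listed for both lines, with mean log2 values from 11.64 to 18.57. The T cell, B cell and epithelial genes CD3E, MS4A1 and EPCAM were listed for neither line, and HBB (8.70), COL1A1 (5.96) and KRT18 (9.36) for MOLM-13 alone.

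An antisense lncRNA is transcribed from the strand opposite to another gene, often a protein-coding one. Some start beside the promoter of that gene and run away from it, so that a shared, usually CG-rich stretch fires in both directions; others run across the body of the gene. Some are known to act on the neighbouring gene, many are cut short or degraded soon after they are made, and for most no role is known. The CG dinucleotide is the site that DNA methyltransferases methylate, and nucleoside analogues such as DAC reduce that methylation.

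All 118 members had an entry in the RefSeq gene table of GRCh38.p14, which served for names and for the order of neighbouring genes, since the submitters' processing notes list the build hg19. Of the members, 106 had the gene they are named for (the sense gene) listed in HL-60 and 105 in MOLM-13. For 85 members the promoter entries of both genes gave an arrangement, and in each the pair lay on opposite strands. In 23 pairs the starts lay within 1000 bases and the genes did not overlap, in 22 the starts lay within 1000 bases and the genes overlapped, in 36 the genes overlapped with starts further apart, and in 4 they neither overlapped nor started close together. The other 33 were not placed. Whether the strand of a read was used in counting is not given in the sources used here, although the library kit keeps strand. Without that, reads of an antisense gene and of an overlapping sense gene cannot be told apart, and this touches each overlapping pair named here. Among the pairs not placed, those of MBNL1-AS1, TSPOAP1-AS1, NFYC-AS1 and PAXIP1-AS2 are named below. Whether they overlap, and so share reads, is not known here.

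The stretches between the starts of 7 non-overlapping pairs are shown. Those pairs hold members named in the results, and each stretch separates an antisense start from a sense start. They come from RefSeq promoter entries on GRCh38.p14, read 5′ to 3′ on the strand of the lncRNA, with every CG dinucleotide in capitals.
RNASEH1-AS1, chr2:3558334-3558385, plus strand: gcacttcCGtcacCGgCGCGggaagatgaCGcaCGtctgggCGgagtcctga
UFL1-AS1, chr6:96521715-96521805, minus strand: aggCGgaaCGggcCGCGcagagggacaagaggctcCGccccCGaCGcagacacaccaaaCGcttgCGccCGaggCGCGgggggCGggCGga
ZNF674-AS1, chrX:46545422-46545489, plus strand: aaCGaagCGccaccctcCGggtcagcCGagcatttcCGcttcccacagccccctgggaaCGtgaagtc
SRP14-AS1, chr15:40039203-40039310, plus strand: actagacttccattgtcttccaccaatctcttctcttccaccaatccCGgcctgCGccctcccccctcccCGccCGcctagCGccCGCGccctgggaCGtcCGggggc
SCAMP1-AS1, chr5:78360542-78360616, minus strand: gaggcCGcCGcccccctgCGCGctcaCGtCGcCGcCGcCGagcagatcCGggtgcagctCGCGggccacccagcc
FRY-AS1, chr13:32031640-32031773, minus strand: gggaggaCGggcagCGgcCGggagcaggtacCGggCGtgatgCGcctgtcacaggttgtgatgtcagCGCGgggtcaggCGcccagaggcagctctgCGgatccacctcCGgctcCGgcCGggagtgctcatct
KMT2E-AS1, chr7:105014142-105014204, minus strand: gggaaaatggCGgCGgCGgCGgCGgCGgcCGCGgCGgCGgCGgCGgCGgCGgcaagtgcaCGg
The stretches run from 52 bases with 7 CG (RNASEH1-AS1) to 134 bases with 13 CG (FRY-AS1), and the KMT2E-AS1 stretch is mostly a run of the triplet CGG, with 15 CG in 63 bases.

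CG content was also counted in the promoter windows, from 250 bases before to 50 after the annotated start, of the 102 members with a RefSeq promoter entry. The members' median was 23 CG per 300-base window, against 14 over all 27305 promoters of the table and 5 over its 11462 lncRNA promoters. Those 2 sets hold promoters of genes at any level in these lines, listed or not, while the members were chosen by level. The part of level in this difference was not tested. Members that start beside a sense gene without overlapping it had a median of 29 CG. The overlapping ones had a median of 21, both those with close starts and those with distant starts. The letters TATAAA, on either strand, were found in 5.88% of member windows, 12.0% of all promoter windows and 15.2% of lncRNA windows. A promoter window with many or few such letters is a description and shows no methylation, which was not measured here.

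The median member level was 7.93 in HL-60 and 8.14 in MOLM-13, on the deposited log2 scale, and 11 members reached 10 in both lines. The highest was OIP5-AS1, a conserved lncRNA also called cyrano, with a mean of 14.6 in HL-60 and 14.9 in MOLM-13. Values are not scaled for gene length and the lines appear to have been normalized apart, so levels are given per gene and line as a description. TTN-AS1, named for the gene of the giant muscle protein titin, had a mean of 6.75 in HL-60 and 10.96 in MOLM-13. CDKN2B-AS1, also called ANRIL, had 8.55 in the former and 7.01 in the latter. The median of MOLM-13 minus HL-60 was 0.199 over the members and 0.139 over all genes listed for both lines.

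In HL-60 with DAC, 6 members rose and 14 fell against DMSO. A call is a limma adjusted p-value under 0.05, with the Benjamini-Hochberg adjustment over all genes tested in the line. The 20 called members were 16.9% of 118, against 24.2% of all 17046 genes tested (11.6% higher and 12.6% lower). The median member log2 fold change was -0.0155, where the median of all genes was 0.000641. The count fell to 12 without DMSO replicate 2 and to 13 without DAC replicate 1. TTN-AS1, GATA2-AS1, TMPO-AS1, VIM-AS1, ATXN1-AS1 and FGD5-AS1 were the members that rose.

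**Figure D1:**
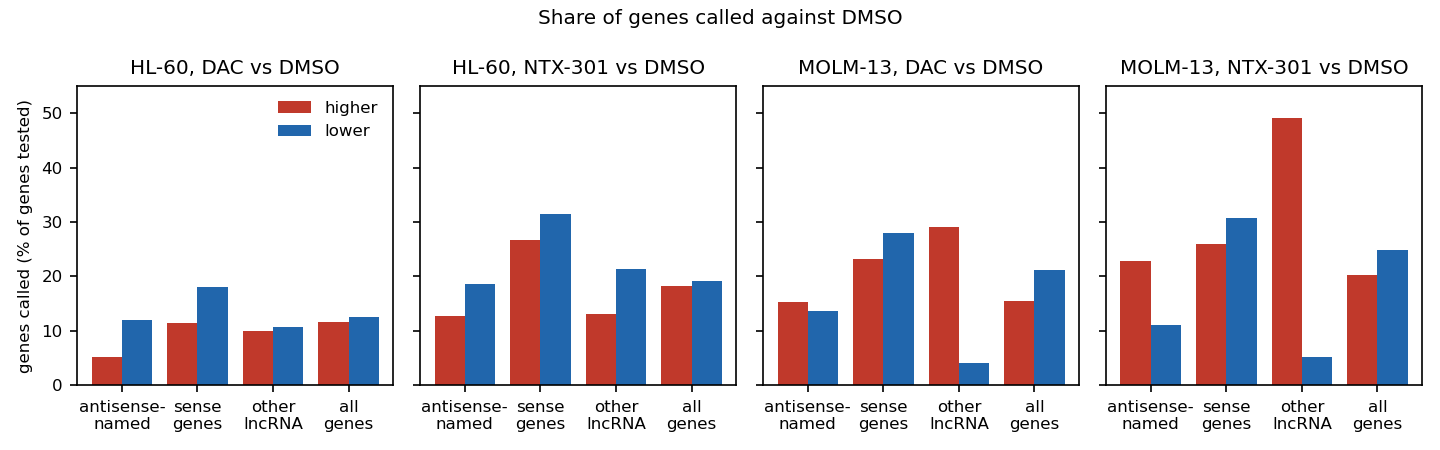
Share of genes called higher (red) or lower (blue) against DMSO, in percent of genes tested, for the 118 antisense-named lncRNAs, their sense genes, other lncRNAs at the same level threshold, and all genes. In each panel the share called among antisense-named lncRNAs was below that of all genes (16.9% against 24.2% in HL-60 with DAC). That order turned in HL-60 with NTX-301 after quantile normalization (39.0% against 36.3%). Other lncRNAs in MOLM-13 with NTX-301 were higher in 49.2%, against 20.3% of all genes.

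TTN-AS1 had the largest change of any member in HL-60. Its values were 6.41, 6.44 and 6.42 with DMSO, 7.36, 7.39 and 7.44 with DAC, and 6.41, 6.42 and 6.46 with NTX-301. The DAC samples stood apart from all 6 others, and the NTX-301 samples lay among or next to the DMSO samples. The log2 fold change with DAC was 0.97 ± 0.0343 (SE, n = 3 against 3, limma adjusted p = 2.89e-10), and NTX-301 against DAC gave -0.97 ± 0.0343 (limma adjusted p = 3.37e-10). TTN itself, which overlaps TTN-AS1, had 10.21, 10.26 and 10.31 with DMSO and 11.07, 10.99 and 10.98 with DAC. TTN rose by 0.75 ± 0.0379 with DAC and by 0.22 ± 0.0379 with NTX-301 (limma adjusted p = 7.98e-09 and 0.000399).

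GATA2-AS1 rose with both drugs in HL-60. It is named for GATA2, a transcription factor of blood stem and progenitor cells. Its values were 9.28, 9.31 and 9.19 with DMSO, 9.64, 9.64 and 9.56 with DAC, and 9.84, 9.80 and 9.86 with NTX-301. The 3 groups did not overlap and were ordered DMSO, DAC, NTX-301. The log2 fold change was 0.35 ± 0.0388 with DAC and 0.57 ± 0.0388 with NTX-301 (limma adjusted p = 2.14e-05 and 7.07e-08), and the drugs differed by 0.22 ± 0.0388 (limma adjusted p = 0.000609). GATA2 rose further, by 0.78 ± 0.0303 and 1.33 ± 0.0303, in the same order. The change of the antisense gene minus that of the sense gene was -0.43 ± 0.0541 with DAC and -0.75 ± 0.0541 with NTX-301 (limma over all pairs, adjusted p = 0.000145 and 1.3e-06). GATA2 had 10.93, 10.97 and 11.02 with DMSO, a higher level than GATA2-AS1, and the part of level in this difference was not tested.

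RNASEH1-AS1 fell most in HL-60 with DAC. A stretch of 52 bases separates its start from that of RNASEH1, the gene of an enzyme that cuts the RNA strand of RNA-DNA hybrids. Its values were 8.55, 8.51 and 8.60 with DMSO, 8.31, 8.20 and 8.25 with DAC, and 8.42, 8.26 and 8.42 with NTX-301. All drug samples lay below all DMSO samples. The log2 fold change was -0.30 ± 0.0487 with DAC and -0.18 ± 0.0487 with NTX-301 (limma adjusted p = 0.000531 and 0.00858). RNASEH1 had a log2 fold change of 0.01 with DAC, which did not pass the test, and fell by 0.16 with NTX-301. The next lowest with DAC were RNF32-AS1 (-0.19 ± 0.041) and NUTM2A-AS1 (-0.18 ± 0.047), with limma adjusted p = 0.00414 and 0.0117. NUTM2A-AS1 has near-identical copies, so its value is uncertain, and its call was lost without DMSO replicate 3 (-0.14) or DAC replicate 3 (-0.15).

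With NTX-301 in HL-60, 15 members rose and 22 fell. Among the 22 was SNAI3-AS1, with HL-60 means of 6.05 (DMSO), 6.03 (DAC) and 5.94 (NTX-301). It passed the threshold of 6 there only through the groups where it is high, so its fall is a description. The 37 called members were 31.4% of 118, against 37.4% of all genes (18.3% higher and 19.2% lower). When each sample was centred on its median the split was 12 higher and 33 lower, and after quantile normalization 10 higher and 36 lower, or 39.0% of members against 36.3% of all genes. Of the members called with DAC, 15 were also called with NTX-301 in the same direction (12.7% of members, against 14.9% of genes tested in both lines), and none was called in opposite directions by the 2 drugs (1.42% of genes). After GATA2-AS1, the highest were MBNL1-AS1 and C1RL-AS1 (0.21 ± 0.044, limma adjusted p = 0.0018), and the lowest were FAM13A-AS1, ZNF674-AS1 and THUMPD3-AS1.

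FAM13A-AS1 had 9.50, 9.59 and 9.48 with DMSO and 9.27, 9.18 and 9.23 with NTX-301, with the DAC samples (9.39, 9.40 and 9.39) between them. It fell by 0.29 ± 0.0373 with NTX-301 (limma adjusted p = 2.57e-05). THUMPD3-AS1, which overlaps the gene of a tRNA methyltransferase, fell by 0.15 ± 0.0341 with DAC and by 0.27 ± 0.0341 with NTX-301 (limma adjusted p = 0.00559 and 2.24e-05). MBNL1-AS1, named for a splicing regulator, had 6.90, 6.97 and 6.83 with DMSO and 6.98, 7.47 and 7.41 with NTX-301. NTX-301 replicate 1 lay next to the DMSO samples and the other two well above them. The log2 fold change was 0.38 ± 0.094 (limma adjusted p = 0.00501; 0.0619 with a robust variance estimate).

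OIP5-AS1 and THAP9-AS1, members of high level, also fell with NTX-301 in HL-60. OIP5-AS1 had 14.72, 14.66 and 14.65 with DMSO, 14.68, 14.72 and 14.70 with DAC, and 14.47, 14.48 and 14.44 with NTX-301. All NTX-301 samples lay below the other 6, and the log2 fold change was -0.21 ± 0.0219 (limma adjusted p = 3.67e-06). THAP9-AS1 fell by 0.09 ± 0.0245 (limma adjusted p = 0.0107).

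NTX-301 and DAC differed directly for 25 members in HL-60, 12 higher and 13 lower with NTX-301. That was 21.2% of members, against 30.4% of all genes (15.4% higher and 15.0% lower). The count was 16 without DAC replicate 1 and 14 without NTX-301 replicate 2. Centred on the sample medians, 7 were higher and 25 lower, and after quantile normalization 8 and 18. MBNL1-AS1 (0.45 ± 0.094) and FBXL19-AS1 (0.23 ± 0.0487) were highest, and TTN-AS1 and SBF2-AS1 (-0.26 ± 0.0417) lowest (limma adjusted p = 0.0022, 0.00267, 3.37e-10 and 0.000337). FBXL19-AS1 is named for a CG-binding F-box protein.

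**Figure D2:**
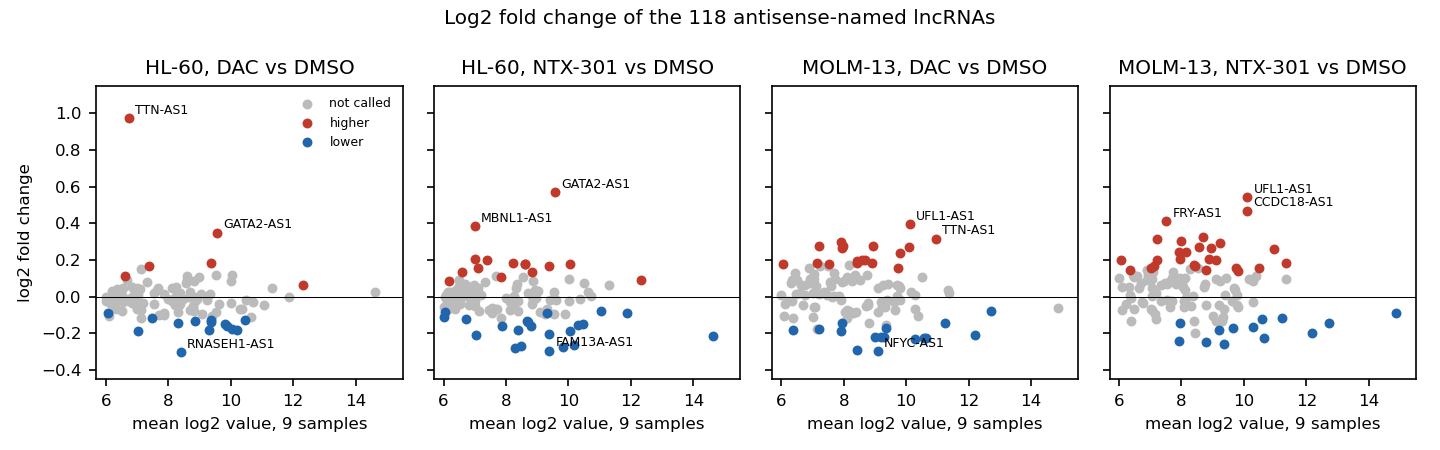
Log2 fold change against DMSO (vertical axis) by mean deposited log2 value over the 9 samples of the line (horizontal axis) for each of the 118 members, with called members in red (higher) or blue (lower). TTN-AS1 in HL-60 with DAC (0.97) and GATA2-AS1 in HL-60 with NTX-301 (0.57) stand above the rest, and most called members lie within 0.3 of 0.

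In MOLM-13 with DAC, 18 members rose and 16 fell. The 34 called members were 28.8% of 118, against 36.6% of all 17475 genes tested (15.4% higher and 21.2% lower). Without DMSO replicate 2 the count was 21. The split depended on the scaling: 17 higher and 25 lower when samples were centred on their medians, 6 higher and 24 lower after quantile normalization. The highest were UFL1-AS1, TTN-AS1 and SRP14-AS1, and the lowest NFYC-AS1, RNASEH1-AS1 and MAPKAPK5-AS1.

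UFL1-AS1 had the largest change of any member in MOLM-13. A stretch of 91 bases separates its start from that of UFL1, the gene of the ligase that attaches the ubiquitin-like protein UFM1. Its values were 9.86, 9.82 and 9.72 with DMSO, 10.15, 10.20 and 10.24 with DAC, and 10.27, 10.38 and 10.38 with NTX-301, so that the 3 groups did not overlap. The log2 fold change was 0.40 ± 0.048 with DAC and 0.54 ± 0.048 with NTX-301 (limma adjusted p = 7.43e-05 and 5.27e-06). UFL1 had log2 fold changes of -0.02 with DAC, which did not pass the test, and -0.09 ± 0.0331 with NTX-301 (limma adjusted p = 0.0433). That UFL1 value was 0.01 after quantile normalization, so its direction depended on the scaling. Its call was lost without DMSO replicate 2 (-0.08) or 3 (-0.07), DAC replicate 3 (-0.09), or NTX-301 replicate 1 (-0.10), 2 (-0.10) or 3 (-0.07). The antisense change minus the sense change was 0.42 ± 0.0695 and 0.64 ± 0.0695 (limma over all pairs, adjusted p = 0.00132 and 4.21e-05). With NTX-301 the pair was named for its opposite calls in these same values, so that difference is a description.

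NFYC-AS1, named for a subunit of the CCAAT-binding factor NF-Y, had 9.26, 9.26 and 9.19 with DMSO and 9.02, 8.91 and 8.88 with DAC. It fell by 0.30 ± 0.051 (limma adjusted p = 0.000767). With NTX-301 it had 9.05, 9.12 and 9.14, all below the DMSO samples, and the log2 fold change of -0.13 did not pass the test (limma adjusted p = 0.0517). RNASEH1-AS1 fell here too, by 0.29 ± 0.0756 with DAC (limma adjusted p = 0.00979). SCAMP1-AS1, which starts beside the gene of a secretory carrier membrane protein, fell by 0.22 ± 0.0559 with DAC (limma adjusted p = 0.00851).

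With NTX-301 in MOLM-13, 27 members rose and 13 fell. The 40 called members were 33.9% of 118, against 45.1% of all genes (20.3% higher and 24.8% lower). Here too the split moved with the scaling, to 23 higher and 20 lower when centred and to 14 higher and 23 lower after quantile normalization. Members called with both drugs in the same direction numbered 26 (22.0%, against 31.9% of genes tested in both lines), and none was called in opposite directions. The highest after UFL1-AS1 were CCDC18-AS1 and FRY-AS1, and the lowest were SBF2-AS1, RPARP-AS1 (-0.25 ± 0.062, limma adjusted p = 0.00664) and ZNF674-AS1.

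CCDC18-AS1 had 9.87, 9.88 and 9.80 with DMSO, 10.08, 10.10 and 10.18 with DAC, and 10.28, 10.37 and 10.30 with NTX-301. The 3 groups did not overlap, and the log2 fold change with NTX-301 was 0.47 ± 0.0433 (limma adjusted p = 7.07e-06). FRY-AS1 had 7.38, 7.21 and 7.35 with DMSO and 7.65, 7.74 and 7.78 with NTX-301. It rose by 0.41 ± 0.066, and its sense gene FRY by 0.52 ± 0.0278 (limma adjusted p = 0.000353 and 2.27e-07). In HL-60 FRY-AS1 had log2 fold changes of 0.04 with DAC and -0.01 with NTX-301, neither of which passed the test.

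SBF2-AS1 moved against its sense gene in MOLM-13. SBF2 encodes a catalytically inactive relative of the myotubularin phosphatases, and the genes overlap. SBF2-AS1 had 9.42, 9.58 and 9.48 with DMSO and 9.25, 9.25 and 9.22 with NTX-301, while SBF2 had 11.00, 11.00 and 11.07 and then 11.50, 11.59 and 11.62. Neither gene's groups overlapped, and the directions were opposite. SBF2-AS1 fell by 0.26 ± 0.0613 and SBF2 rose by 0.55 ± 0.0358, a difference of -0.80 ± 0.0686 (limma over all pairs, adjusted p = 9.6e-06). Because this pair was picked by its opposite calls in these same values, the difference is a description. In HL-60 with NTX-301, SBF2-AS1 fell by 0.27 ± 0.0417 and SBF2 by 0.26 ± 0.0427.

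NTX-301 and DAC differed directly for 6 members in MOLM-13, all higher with NTX-301: FRY-AS1, KMT2E-AS1, CCDC18-AS1, MBNL1-AS1, PSMD6-AS2 and PSMA3-AS1. This was 5.08% of members, against 7.42% of all genes (3.01% higher and 4.41% lower); 19 members had an unadjusted limma p-value under 0.05. The count was lower whichever library was left out (0 to 5). It was 3 without DMSO replicate 3, 1 without DAC replicate 1, 2 without DAC replicate 2, 2 without NTX-301 replicate 1, 0 without NTX-301 replicate 2 and 1 without NTX-301 replicate 3. The largest were FRY-AS1 (0.24 ± 0.066) and KMT2E-AS1 (0.23 ± 0.0569), with limma adjusted p = 0.046 and 0.035. The FRY-AS1 call held only without DMSO replicate 2 or DAC replicate 2 among single libraries left out (0.20 to 0.28 for the 7 others) and was lost after quantile normalization (0.23), and the KMT2E-AS1 call was lost without DMSO replicate 3 (0.23), DAC replicate 1 (0.18) or 2 (0.21), or NTX-301 replicate 1 (0.25), 2 (0.22) or 3 (0.21).

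**Figure D3:**
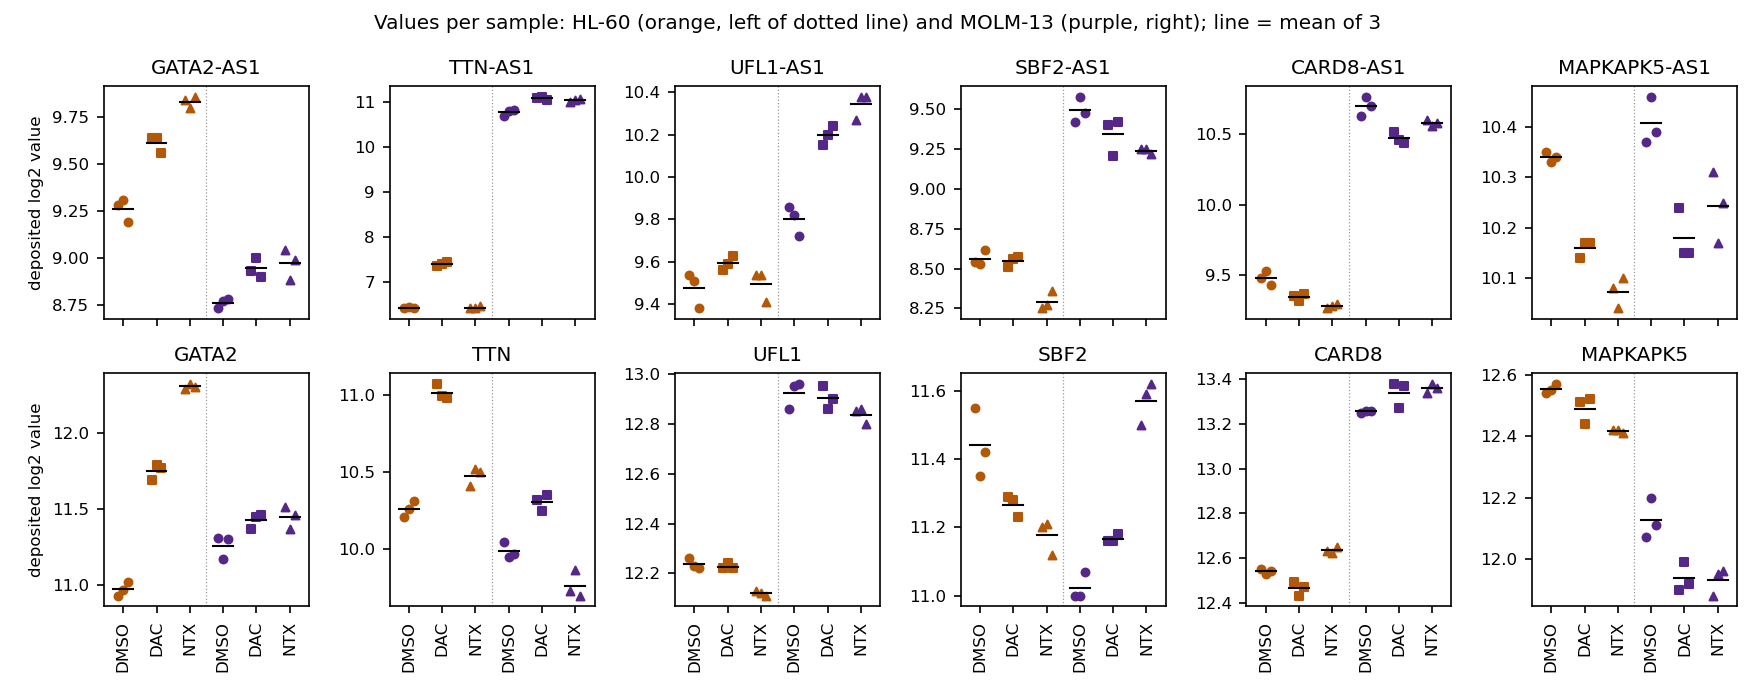
Deposited log2 value (vertical axis, its range set per panel) in each sample for 6 antisense-named lncRNAs (top) and their sense genes (bottom), by group, with HL-60 in orange, MOLM-13 in purple and a line at the mean of 3. TTN-AS1 stands at 7.36 to 7.44 with DAC in HL-60 against 6.41 to 6.44 with DMSO, and SBF2-AS1 goes down with NTX-301 in MOLM-13 while SBF2 goes up.

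Over the 4 comparisons of a drug with DMSO, 65 members were called at least once (55.1%, against 69.5% of the 15474 genes tested in both lines) and 53 never. ATXN1-AS1 and GATA2-AS1 were higher in all 4, and ZNF674-AS1, CARD8-AS1 and MAPKAPK5-AS1 lower in all 4 (1.69% and 2.54% of members, against 1.87% and 3.55% of all genes). DAC called 7 members in the same direction in both lines (5.93% against 9.63%), and NTX-301 called 12 (10.2% against 16.6%). No share here lay above that of all genes.

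MAPKAPK5-AS1 overlaps the start of MAPKAPK5, the gene of a stress-activated protein kinase. In HL-60 it had 10.35, 10.33 and 10.34 with DMSO, 10.14, 10.17 and 10.17 with DAC, and 10.08, 10.04 and 10.10 with NTX-301. In MOLM-13 it had 10.37, 10.46 and 10.39, then 10.24, 10.15 and 10.15, then 10.31, 10.17 and 10.25. All drug samples lay below all DMSO samples of their line. It fell by 0.18 ± 0.0288 and 0.27 ± 0.0288 in HL-60 and by 0.23 ± 0.0457 and 0.16 ± 0.0457 in MOLM-13 (limma adjusted p = 0.000465, 6.06e-06, 0.00214 and 0.0116). The last of these calls was lost without DMSO replicate 2 (-0.14, adjusted p = 0.052) or NTX-301 replicate 2 (-0.13, adjusted p = 0.0541). MAPKAPK5 fell in 3 of the 4 comparisons, by 0.14 with NTX-301 in HL-60 and by 0.19 and 0.20 in MOLM-13.

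CARD8-AS1 is named for CARD8, an inflammasome sensor, and starts within 1000 bases of it with an overlap. It had 9.48, 9.53 and 9.43 with DMSO in HL-60, 9.35, 9.31 and 9.36 with DAC, and 9.26, 9.28 and 9.29 with NTX-301. In MOLM-13 it had 10.63, 10.77 and 10.70, then 10.52, 10.46 and 10.44, then 10.60, 10.56 and 10.58. Every drug sample lay below every DMSO sample of its line. It fell by 0.14 and 0.20 in HL-60 and by 0.23 and 0.12 in MOLM-13. The MOLM-13 call with NTX-301 was lost without DMSO replicate 2 (-0.09) or 3 (-0.12), or without NTX-301 replicate 2 (-0.11) or 3 (-0.12), and after quantile normalization (-0.11). CARD8 itself fell with DAC in HL-60 (-0.08) and rose in the other 3 comparisons, by 0.10, 0.09 and 0.11. Its DAC call in MOLM-13 was lost without any 1 DMSO replicate (0.09 each) and without DAC replicate 1 or 3 (0.07 each) or NTX-301 replicate 3 (0.09). When samples were centred, both MOLM-13 calls of CARD8 were lost (0.05 and 0.08). The antisense-minus-sense change was -0.30 ± 0.0373 in HL-60 with NTX-301, and in MOLM-13 it was -0.31 ± 0.0548 with DAC and -0.23 ± 0.0548 with NTX-301 (limma over all pairs, adjusted p = 6.78e-05, 0.00196 and 0.00536). These comparisons were picked by the opposite calls of the pair in the same values, so the differences are a description.

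A stretch of 68 bases separates ZNF674-AS1 from ZNF674, a zinc finger gene. It had 8.41, 8.45 and 8.47 with DMSO in HL-60 and 8.11, 8.15 and 8.24 with NTX-301, and 8.11, 8.06 and 8.04 and then 7.83, 7.89 and 7.77 in MOLM-13. NTX-301 samples lay below DMSO samples in both lines. With NTX-301 it fell by 0.28 ± 0.0409 in HL-60 and by 0.24 ± 0.062 in MOLM-13 (limma adjusted p = 9.11e-05 and 0.00731). With DAC it fell by 0.15 and 0.19. The DAC call in HL-60 was lost without DMSO replicate 2 (-0.14) or 3 (-0.13) or DAC replicate 1 (-0.13), and in MOLM-13 without DMSO replicate 1 (-0.17), 2 (-0.19) or 3 (-0.20) or DAC replicate 2 (-0.14) or 3 (-0.19). ZNF674 rose with NTX-301, by 0.13 and 0.19. Those 2 calls were lost when a DMSO or NTX-301 library was left out (replicates 2 and 3 of both groups in HL-60, 0.11 to 0.13; DMSO replicates 1 and 2 and NTX-301 replicates 2 and 3 in MOLM-13, 0.16 to 0.20). Both were lost after quantile normalization (0.07 and 0.09), and the HL-60 call also when samples were centred (0.10). The antisense-minus-sense change with NTX-301 was -0.41 ± 0.0366 in HL-60 and -0.44 ± 0.0937 in MOLM-13 (limma over all pairs, adjusted p = 6.93e-06 and 0.00247). Here too the pair was picked by its opposite calls in the same values, so the differences are a description.

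Among the members higher in all 4 comparisons, GATA2-AS1 rose with both drugs in MOLM-13 too. There it had 8.73, 8.77 and 8.78 with DMSO, 8.93, 9.0 and 8.90 with DAC, and 9.04, 8.88 and 8.99 with NTX-301, with all drug samples above all DMSO samples. The log2 fold changes were 0.18 ± 0.0531 and 0.21 ± 0.0531 (limma adjusted p = 0.0188 and 0.00769), and those of GATA2 0.17 and 0.19. The DAC call was lost without DMSO replicate 1 (0.17) or DAC replicate 2 (0.15), and both calls after quantile normalization (0.12 and 0.11). For GATA2, the DAC call was lost without DMSO replicate 2 (0.12) or DAC replicate 2 (0.16) or 3 (0.15). The NTX-301 effect on GATA2-AS1 was lower in MOLM-13 than in HL-60 by the interaction test (-0.37 ± 0.0643, limma adjusted p = 0.000165), and the DAC effect did not pass it (-0.17 ± 0.0643, adjusted p = 0.0549).

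ATXN1-AS1, named for the gene of the polyglutamine protein ataxin-1, rose by 0.11 and 0.13 in HL-60 and by 0.27 and 0.21 in MOLM-13. In HL-60 its values were 6.52, 6.51 and 6.54 with DMSO, 6.64, 6.63 and 6.64 with DAC and 6.69, 6.62 and 6.66 with NTX-301. The call with NTX-301 in HL-60 held whichever library was left out. The HL-60 DAC call was lost without DMSO replicate 2 (0.11), the MOLM-13 DAC call without DMSO replicate 2 (0.23), and the MOLM-13 NTX-301 call without DMSO replicate 1 (0.18) or 2 (0.17) or NTX-301 replicate 1 (0.17) or 3 (0.19). Both MOLM-13 calls were also lost after quantile normalization (0.16 and 0.09).

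Drug effects were compared between the lines by an interaction test over the 15474 genes tested in both. For DAC, 25 members differed, 17 with a higher effect in MOLM-13 and 8 with a lower one, which was 21.2% of members against 30.0% of all genes (12.1% higher and 17.9% lower). For NTX-301, 32 differed, 24 higher and 8 lower, which was 27.1% against 40.0% (17.6% and 22.4%). For DAC the split was 13 and 15 when samples were centred on their medians and 12 and 9 after quantile normalization.

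TTN-AS1 had opposite interactions with the 2 drugs. Its DAC effect was lower in MOLM-13 (-0.66 ± 0.059 against HL-60), and its NTX-301 effect was higher (0.26 ± 0.059; limma adjusted p = 1.55e-07 and 0.00188). In MOLM-13 it had 10.68, 10.80 and 10.82 with DMSO, 11.09, 11.12 and 11.04 with DAC, and 11.00, 11.04 and 11.06 with NTX-301. It rose there with both drugs, by 0.32 ± 0.0405 and 0.26 ± 0.0405 (limma adjusted p = 0.000108 and 0.000271). Its DMSO values in HL-60 were 6.41, 6.44 and 6.42, so its effects are compared between unlike levels. The part of level in its interactions was not tested. UFL1-AS1 had a higher effect in MOLM-13 for both drugs (0.28 ± 0.0706 and 0.52 ± 0.0706, limma adjusted p = 0.00537 and 9.79e-06).

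Some members were called in opposite directions in the lines: 4 with DAC (TMPO-AS1, CCDC18-AS1, MRAP-AS1 and FGD5-AS1) and 7 with NTX-301 (FAM13A-AS1, RNF32-AS1, TRG-AS1, PSMD6-AS2, KANSL1L-AS1, MRAP-AS1 and FGD5-AS1). These were 3.39% and 5.93% of members, against 3.53% and 6.59% of all genes tested in both lines, so that such members were about as frequent as such genes at large. TMPO-AS1 overlaps the start of TMPO, the gene of lamina-associated polypeptide 2. It had 9.17, 9.29 and 9.32 with DMSO and 9.45, 9.48 and 9.41 with DAC in HL-60, and 9.39, 9.48 and 9.38 and then 9.14, 9.18 and 9.28 in MOLM-13. It rose by 0.19 ± 0.0403 in HL-60 and fell by 0.22 ± 0.0542 in MOLM-13 (limma adjusted p = 0.00433 and 0.00796). TMPO had a log2 fold change of -0.02 in HL-60, which did not pass the test, and fell by 0.36 in MOLM-13. CCDC18-AS1, which rose in MOLM-13, fell in HL-60 by 0.16 ± 0.0469 with DAC (limma adjusted p = 0.0239), a call lost without DMSO replicate 1 (-0.11) or 2 (-0.17) or DAC replicate 1 (-0.14), and after quantile normalization (-0.16).

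FAM13A-AS1, which fell in HL-60 with NTX-301, had 9.07, 9.03 and 8.98 with DMSO and 9.26, 9.20 and 9.23 with NTX-301 in MOLM-13. It rose there by 0.20 ± 0.0551 (limma adjusted p = 0.0111; 0.12 and not called after quantile normalization). RNF32-AS1 fell in HL-60 by 0.21 ± 0.041 and rose in MOLM-13 by 0.24 ± 0.0706 with NTX-301 (limma adjusted p = 0.000927 and 0.0147). The MOLM-13 call was lost without DMSO replicate 2 (0.20) or NTX-301 replicate 2 (0.22), and after quantile normalization (0.14). TRG-AS1, named for the T cell receptor gamma locus, fell by 0.15 ± 0.0329 in HL-60 and rose by 0.14 ± 0.0368 in MOLM-13 with NTX-301 (limma adjusted p = 0.00202 and 0.0093).

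The remaining members of opposite calls had small changes. MRAP-AS1, named for an accessory protein of melanocortin receptors, fell by 0.09 with each drug in HL-60 and rose by 0.18 and 0.20 in MOLM-13. Its MOLM-13 means were 5.94 with DMSO, 6.12 with DAC and 6.14 with NTX-301, so it passed the threshold of 6 only through the groups where it is high, and its MOLM-13 changes are given as a description. Its HL-60 calls were lost without any 1 DMSO replicate (-0.08 to -0.10), with DAC also without DAC replicate 1 (-0.10) or 3 (-0.07), and the NTX-301 call also without replicate 1 (-0.07) or 2 (-0.08) of that drug. In MOLM-13 its DAC call was lost without DMSO replicate 2 or 3 (0.17 each) or DAC replicate 3 (0.14), and both calls after quantile normalization (0.12 each).

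FGD5-AS1 rose in HL-60 by 0.06 with DAC and 0.09 with NTX-301 and fell in MOLM-13 by 0.08 and 0.15. Its NTX-301 calls held whichever library was left out, but in MOLM-13 the call was lost after quantile normalization (-0.06, and -0.01 with DAC). Its DAC call in HL-60 held only without DMSO replicate 3 (0.05 to 0.07 without any of the others), and in MOLM-13 only without DMSO replicate 1 or DAC replicate 1 (-0.06 to -0.08 without any of the others).

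PSMD6-AS2 fell by 0.14 in HL-60 and rose by 0.14 in MOLM-13 with NTX-301. The HL-60 call was lost without DMSO replicate 1 (-0.11) or NTX-301 replicate 2 (-0.12), and the MOLM-13 call without DMSO replicate 2 (0.13) or 3 (0.14) or NTX-301 replicate 2 (0.15) or 3 (0.12), and also when samples were centred (0.11) or quantile-normalized (0.05). KANSL1L-AS1 fell by 0.09 in HL-60 and rose by 0.17 in MOLM-13 with NTX-301. The HL-60 call held only without DMSO replicate 2 (-0.07 to -0.10 without any of the others), and the MOLM-13 call was lost without DMSO replicate 1 (0.16) or 2 (0.17) or NTX-301 replicate 3 (0.16), and after quantile normalization (0.07). The HL-60 call was also lost with a robust variance estimate, with only the compared groups fitted and with a filter at a mean of 6 (-0.09 each).

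The sense genes of the members were also counted. In HL-60, 12 sense genes rose and 19 fell with DAC and 28 rose and 33 fell with NTX-301, of 105 tested (29.5% and 58.1%). In MOLM-13, 24 rose and 29 fell with DAC and 27 rose and 32 fell with NTX-301, of 104 (51.0% and 56.7%). The shares of all genes called in the same comparisons were 24.2%, 37.4%, 36.6% and 45.1%, and the difference between the lists was not tested. After quantile normalization the MOLM-13 split turned, to 32 higher and 22 lower with DAC and 37 and 22 with NTX-301.

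Taken pair by pair, both genes were called in the same direction in 4 of 106 pairs with DAC and 13 with NTX-301 in HL-60, and in 11 and 13 of 105 pairs in MOLM-13. These were 3.77%, 12.3%, 10.5% and 12.4% of member pairs, against 1.37%, 7.17%, 4.93% and 5.59% of all pairs (293 tested in HL-60, 304 in MOLM-13). Opposite calls were found in 0 and 6 pairs in HL-60 and in 5 and 10 in MOLM-13, or 0.00%, 5.66%, 4.76% and 9.52%, against 0.341%, 3.07%, 2.96% and 5.92% of all pairs. The member pairs are part of all pairs and were chosen by level, and the difference was not tested. The change of the antisense gene minus that of the sense gene was tested over every pair of a line, 294 in HL-60 and 304 in MOLM-13. In HL-60 it was called for 24 member pairs with DAC (22.6%, against 21.4% of all pairs) and 50 with NTX-301 (47.2% against 44.2%). In MOLM-13 it was called for 34 with DAC (32.4% against 33.9%) and 48 with NTX-301 (45.7% against 48.7%). The HL-60 DAC count was 15 without DMSO replicate 2, DAC replicate 1 or DAC replicate 2, and the MOLM-13 DAC count 22 without DMSO replicate 3. With NTX-301 the antisense gene had the higher change in 20 pairs and the lower in 30 in HL-60 (18.9% and 28.3%, against 23.1% and 21.1% of all pairs), and in 33 and 15 in MOLM-13 (31.4% and 14.3%, against 33.6% and 15.1%). The sense gene had the higher mean level in 89 member pairs in HL-60 and 92 in MOLM-13. The part of level in these differences was not tested.

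**Figure D4:**
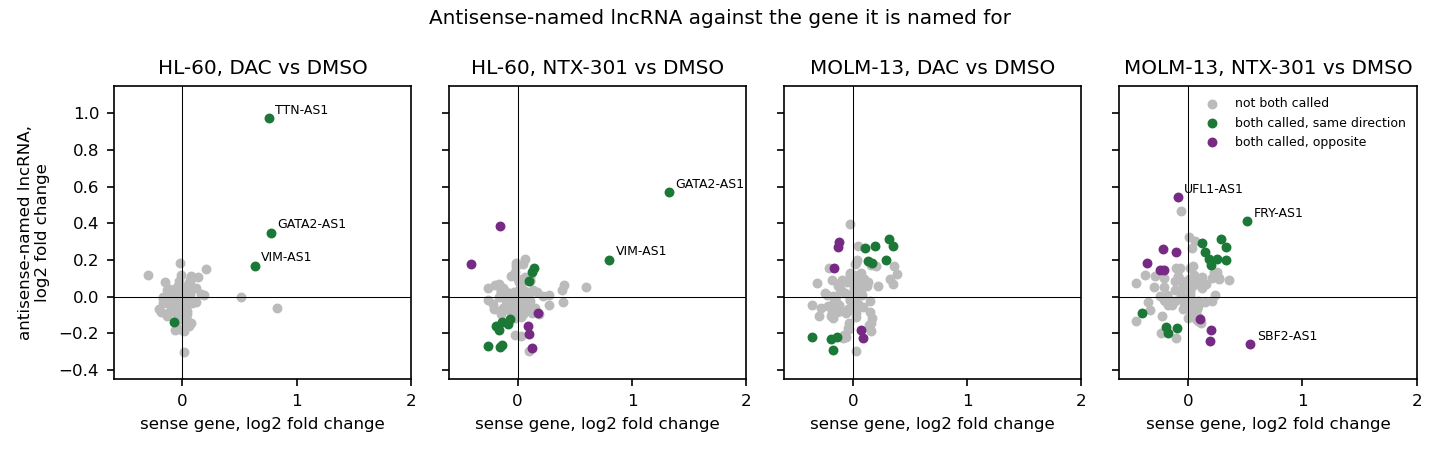
Log2 fold change of each antisense-named lncRNA (vertical axis) against that of the gene it is named for (horizontal axis), 1 point per pair, for 4 comparisons with DMSO. Pairs with both genes called in the same direction are green and those called in opposite directions purple; GATA2-AS1 with GATA2 (0.57 and 1.33) lies far to the right in HL-60 with NTX-301, and SBF2-AS1 with SBF2 (-0.26 and 0.55) at the lower right in MOLM-13.

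The 10 opposite pairs of MOLM-13 with NTX-301 were UFL1, PSMA3, PSMD6-AS2, TTN, PAXIP1-AS2 and SRP14, with the antisense gene higher, and SBF2, TTC28, ZNF674 and CARD8, with it lower. PSMA3-AS1 and its sense gene, which encodes a proteasome core subunit, overlap. PSMA3-AS1 had 11.32, 11.27 and 11.28 with DMSO and 11.47, 11.50 and 11.45 with NTX-301, and PSMA3 had 13.55, 13.61 and 13.59 and then 13.26, 13.19 and 13.22. PSMA3-AS1 rose by 0.18 ± 0.0338 and PSMA3 fell by 0.36 ± 0.0292 (limma adjusted p = 0.000935 and 3.36e-06). TTN-AS1 rose by 0.26 and TTN fell by 0.22 ± 0.0512 (limma adjusted p = 0.00429), with an antisense-minus-sense change of 0.48 ± 0.0734 (limma over all pairs, adjusted p = 0.000274). All pairs of this paragraph were picked by their opposite calls in these same values, so that change is a description.

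A stretch of 108 bases separates SRP14-AS1 from SRP14, the gene of a signal recognition particle subunit. In MOLM-13 it had 7.73, 7.82 and 7.69 with DMSO, 7.96, 8.08 and 8.08 with DAC, and 7.97, 7.94 and 8.06 with NTX-301, all drug samples above all DMSO samples. It rose by 0.30 ± 0.0599 and 0.24 ± 0.0599 (limma adjusted p = 0.00233 and 0.00601), and SRP14 fell by 0.12 and 0.11. After quantile normalization the SRP14 values were -0.04 and -0.01 and were not called, and SRP14-AS1 with NTX-301 was 0.12 and not called. CCDC18, KDM4A, WARS2 and CARD8 gave the other opposite pairs of MOLM-13 with DAC. CCDC18-AS1 rose by 0.27 and CCDC18 fell by 0.13, a difference of 0.40 ± 0.0549 (limma over all pairs, adjusted p = 0.000547). That pair was picked by its opposite calls in these same values, so the difference is a description.

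KDM4A-AS1 fell by 0.18 while KDM4A, a histone demethylase gene, rose by 0.07 with DAC in MOLM-13. The antisense call was lost without DMSO replicate 2 (-0.17) or 3 (-0.14) or DAC replicate 1 (-0.17), 2 (-0.18) or 3 (-0.19), and the sense call without DMSO replicate 1 (0.07) or 2 (0.06) or DAC replicate 1 (0.07) or 2 (0.06), and when samples were centred (0.04). WARS2-AS1 rose by 0.16 and WARS2, the gene of the mitochondrial tryptophanyl-tRNA synthetase, fell by 0.16. The WARS2-AS1 call was lost without DMSO replicate 2 (0.16) or 3 (0.12), DAC replicate 2 (0.16) or 3 (0.11) or NTX-301 replicate 1 (0.16), when samples were centred (0.12) or quantile-normalized (0.11), and with only the compared groups fitted (0.16).

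Among the NTX-301 pairs of MOLM-13, PAXIP1-AS2 rose by 0.15 and PAXIP1, the gene of a BRCT-domain protein of the DNA damage response, fell by 0.21. The PAXIP1-AS2 call was lost without DMSO replicate 3 (0.14) or NTX-301 replicate 1 or 2 (0.14 each), and when samples were centred (0.12) or quantile-normalized (0.06). TTC28-AS1 fell by 0.18 and TTC28 rose by 0.20, with the antisense call lost without DMSO replicate 2 (-0.18) or 3 (-0.16) or NTX-301 replicate 2 (-0.18) or 3 (-0.14). PSMD6, the gene of a regulatory subunit of the proteasome, fell by 0.25 beside the rise of PSMD6-AS2.

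In HL-60 with NTX-301, opposite calls were made for MBNL1, TSPOAP1, KANSL1L, ZNF674, NFYC and CARD8. NFYC rose by 0.09 and NFYC-AS1 fell by 0.16. The NFYC call was lost without any 1 DMSO replicate (0.08 to 0.10), DAC replicate 1 (0.09) or NTX-301 replicate 1 (0.07) or 2 (0.09), and when samples were centred (0.06). TSPOAP1-AS1 had 9.88, 9.93 and 10.06 with DMSO and 10.17, 10.16 and 10.06 with NTX-301, so that the groups met at 10.06. It rose by 0.18 ± 0.0489 (limma adjusted p = 0.0104), a call lost without DMSO replicate 1 (0.14, adjusted p = 0.0515). TSPOAP1, which encodes a protein that binds the mitochondrial translocator protein, fell from 13.49, 13.48 and 13.55 to 13.07, 13.12 and 13.11, by 0.41 ± 0.0344 (limma adjusted p = 5.92e-07).

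VIM-AS1, chosen after its values were seen, is named for the gene of the intermediate filament vimentin, which it overlaps. VIM had 10.86, 10.87 and 10.86 with DMSO in HL-60, 11.50, 11.46 and 11.51 with DAC, and 11.67, 11.64 and 11.67 with NTX-301. VIM-AS1 had 7.23, 7.39 and 7.18, then 7.52, 7.43 and 7.35, then 7.47, 7.53 and 7.41, so that DMSO and DAC samples overlapped. VIM rose by 0.63 ± 0.0239 and 0.80 ± 0.0239, and VIM-AS1 by 0.17 ± 0.0575 and 0.20 ± 0.0575 (limma adjusted p = 0.0455 and 0.0128). The DAC call was lost without DMSO replicate 1 (0.15) or 3 (0.12), DAC replicate 1 (0.13) or 2 (0.17) or NTX-301 replicate 1 (0.17), and the NTX-301 call without DMSO replicate 3 (0.16) or NTX-301 replicate 2 (0.17). Both were lost after quantile normalization (0.12 and 0.14), and the DAC call also with no trend, no filter or only the compared groups fitted (0.17 each). The antisense-minus-sense change was -0.46 ± 0.0588 and -0.60 ± 0.0588 (limma over all pairs, adjusted p = 0.000145 and 1.53e-05). VIM had the higher level, and the part of level in this difference was not tested.

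Pairs with both genes called were also counted by arrangement. Of all pairs of a line, 1.37% and 7.17% in HL-60 (DAC, then NTX-301) and 4.93% and 5.59% in MOLM-13 were called in the same direction. Opposite directions were found in 0.341%, 3.07%, 2.96% and 5.92%. Of the 23 pairs with close starts and no overlap, both genes were called in the same direction in 0 and 3 pairs in HL-60 (DAC, then NTX-301) and in 2 and 2 in MOLM-13, and in opposite directions in 0, 1, 1 and 3. Of the overlapping pairs with distant starts (35 in HL-60, 34 in MOLM-13), the same direction was found in 3, 7, 4 and 6 and opposite directions in 0, 1, 1 and 5. The 22 overlapping pairs with close starts had the same direction in 1, 1, 3 and 2. They had opposite directions in 0, 1, 2 and 1. The 22 pairs not placed had the same direction in 0, 2, 2 and 2 and opposite directions in 0, 3, 0 and 1. The 4 pairs with neither overlap nor close starts had 0, 0, 0 and 1, and then 0, 0, 1 and 0. The counts by arrangement are small, and the difference between arrangements was not tested.

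Promoter CG counts were set beside the calls as a description. In MOLM-13 with NTX-301, the 24 higher members with a promoter entry had a median of 11 CG, the 11 lower ones 23 and the 67 not called 25. With DAC there, the 15 higher members had 11, the 13 lower ones 32 and the 74 others 23. In HL-60 the order was different: with NTX-301 the 12 higher members had a median of 24, the 20 lower ones 16.5 and the 70 others 23.5. No test was made of these medians.

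Other lncRNAs at the same level threshold numbered 614. In MOLM-13 with NTX-301, 302 of them rose and 32 fell (54.4% called), with a median log2 fold change of 0.153 against 0.0532 for the members and 0.00336 for all genes. With DAC there, 178 rose and 25 fell (33.1% called), and the medians were 0.0952, 0.0138 and 0.00132. Of all genes in MOLM-13, 20.3% rose and 24.8% fell with NTX-301, and 15.4% rose and 21.2% fell with DAC. In HL-60 the other lncRNAs had 61 higher and 66 lower with DAC (20.7% called, against 24.2% of all genes). With NTX-301 they had 80 higher and 131 lower (34.4% called, against 37.4% of all genes). The counts moved with the scaling: after quantile normalization 190 rose and 58 fell with NTX-301 and 106 and 49 with DAC in MOLM-13, and 54 and 196 with NTX-301 in HL-60. The difference between these lncRNAs and the members was not tested.

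The enzymes that degrade or end such transcripts were read out alongside. The nuclear RNA exosome degrades many antisense and promoter-upstream transcripts, and of 21 genes of the exosome and its adaptors 0 rose and 6 fell in HL-60 with DAC and 1 rose and 8 fell with NTX-301. In MOLM-13, 1 rose and 14 fell with DAC and 2 rose and 18 fell with NTX-301. EXOSC8 and EXOSC9, ring subunits, fell in MOLM-13 with NTX-301 by 0.41 ± 0.0348 and 0.33 ± 0.026 (limma adjusted p = 4.21e-06 and 2.51e-06), and the nuclease DIS3 by 0.15 ± 0.0271 (limma adjusted p = 0.000682). ZFC3H1, an adaptor of that machinery, rose by 0.17 ± 0.0306 (limma adjusted p = 0.000811). Integrator and its partners end many noncoding transcripts early, and of 20 such genes 1 rose and 5 fell (DAC) and 3 rose and 9 fell (NTX-301) in HL-60, and 1 rose and 10 fell and 1 rose and 14 fell in MOLM-13. After quantile normalization the MOLM-13 counts were 2 higher and 11 lower (DAC) and 2 higher and 13 lower (NTX-301) for the exosome genes, and 1 higher and 4 lower and 2 higher and 8 lower for the Integrator genes. PCF11, a termination factor, fell by 0.27 ± 0.0223 with NTX-301 in HL-60 and by 0.18 ± 0.0253 in MOLM-13 (limma adjusted p = 4.58e-07 and 0.000171). INTS6 of the same list was called higher in all 4 comparisons, by 0.12 and 0.17 in HL-60 (DAC, then NTX-301) and by 0.08 and 0.09 in MOLM-13. Of all genes, 12.6%, 19.2%, 21.2% and 24.8% fell in the 4 comparisons, in the same order. The part of these genes in the members' values was not tested.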

How the data were processed

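The authors deposited 1 normalized value per gene and sample on a log2 scale, a unit read from the values; how values were normalized, which annotation was used and if strand was counted are not given in the sources used here. Low genes may be drawn towards their mean, so fold changes of low members may be compressed, which was not tested. The submitters' processing notes list FastQC, Trimmomatic 0.38, HISAT2, StringTie and hg19, with no roles. Per the labels' protocols, the kit kept strand and took total RNA.

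A gene entered the fit where its linear value reached 1 in 3 or more samples. The fit was limma's (version 3.58.1, R 4.3.3; mean-variance trend, two-sided, Benjamini-Hochberg over all genes), on the 9 samples of a line (6 residual degrees of freedom), or on all 18 for the interaction between line and drug. Antisense-minus-sense differences were fitted over all pairs of a line. The members and lists were chosen with earlier results of these data known. Genes are named with full statistics by these rules: the 3 highest and 3 lowest called members of each drug-against-DMSO comparison and the 2 highest and 2 lowest of each comparison of the drugs; members called in 1 direction in all 4 or in opposite directions; opposite pairs; the highest levels; and those nearest the threshold. Opposite pairs were picked by the calls of both genes, so their antisense-minus-sense differences in those comparisons are a description. VIM-AS1, the other members listed as called and the genes named from the exosome and Integrator lists were added after their values were seen. NUTM2A-AS1 and NUTM2B-AS1 have near-identical copies, so their values are uncertain. Tested on simulated data of 200 changed genes of mixed size, the fit recovered 97.0% in HL-60 (17046 genes, 6 false calls) and 94.5% in MOLM-13 (17475 genes, 11 false calls), and of those changed by 0.25 on the log2 scale 90.0% and 80.0%. Alternatives were median centring, quantile normalization, variance options, filters, a replicate block, the level threshold and leaving out each library.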

Additional observations from a re-analysis of the deposited data

Results flagged for a closer look

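The DAC effect differed between MOLM-13 and HL-60 for 25 members (21.2%, against 30.0% of all genes), and the NTX-301 effect for 32 (27.1% against 40.0%). Both counts come from the limma interaction test over all 18 samples, and both shares lay below those of all genes. Among the members that differed, those called in opposite directions in the lines had these differences in log2 fold change, MOLM-13 minus HL-60. With DAC, CCDC18-AS1 differed by 0.43, MRAP-AS1 by 0.27, TMPO-AS1 by -0.40 and FGD5-AS1 by -0.14. With NTX-301, FAM13A-AS1 differed by 0.49, RNF32-AS1 by 0.45, MRAP-AS1 by 0.29, TRG-AS1 by 0.29, PSMD6-AS2 by 0.28, KANSL1L-AS1 by 0.26 and FGD5-AS1 by -0.24. The 11 were chosen by their opposite calls, so these differences are a description. MRAP-AS1 passed the level threshold of 6 in MOLM-13 only through its drug groups (5.94 with DMSO, 6.12 with DAC and 6.14 with NTX-301). FGD5-AS1 with DAC lost its call in HL-60 (0.06) and in MOLM-13 (-0.08) under 12 of 17 alternatives each, and KANSL1L-AS1 with NTX-301 in HL-60 (-0.09) under 12 of 17. Dose and line cannot be told apart in these differences.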

How the results depend on the processing

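Of 150 named results, 102 kept their call or lack of one under every alternative, 48 lost a call under at least 1, and 1 reversed: UFL1 in MOLM-13 with NTX-301, 0.01 after quantile normalization. The count for NTX-301 against DAC in MOLM-13 was 6 members, and 3 after quantile normalization, 2 when only the compared groups were fitted and 2 with a replicate block. A level threshold of 5 (177 members) gave 54 called pairs in MOLM-13 with DAC and 73 with NTX-301, because more pairs were counted; a threshold of 7 (73 members) gave 19 pairs with DAC and 13 members with a DAC effect that differed between lines. Leaving out 1 library gave 12 to 21 members for DAC and 26 to 36 for NTX-301 in HL-60, 21 to 35 and 28 to 44 in MOLM-13, and 14 to 24 and 0 to 5 for NTX-301 against DAC. It gave 19 to 29 and 27 to 33 for the DAC and NTX-301 effects between lines, 15 to 23 and 39 to 51 pairs in HL-60, and 22 to 35 and 33 to 51 pairs in MOLM-13. The shared replicate numbers were not taken to pair the samples: correlations of same-numbered deviations ran from -0.17 to 0.126, and the block moved no other count of members or pairs past the limit used for calling a count changed. The cause of these changes was not tested. Read depth is unknown, so no limit from counting can be given.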
